A study of Paxillus involutus ATCC 200175 with 12 samples.

Results

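Glucose was added to an extract of organic matter in the absence of ammonium, and the transcript levels of the fungus Paxillus involutus (strain ATCC 200175) were compared with those on the extract alone. The comparison holds the 3 arrays titled OM+G and the 3 titled OM, 6 of the 12 arrays of the series, chosen by their titles. In both groups mycelium had grown axenically on glass beads for 9 days on Melin Norkrans medium and had been starved of nitrogen for 24 h. Both groups then received the same hot-water extract of maize compost for 7 days, freed of particles over 0.2 um and of compounds under 10 kDa, and OM+G received glucose as well. The OM+N and OM+N+G groups, which received ammonium without and with glucose, entered the fit and are set beside the comparison where it is useful. How much glucose or ammonium was supplied is not stated in the labels. The cultures are of 1 strain. The design text names 3 separate cultures, taken here to mean 3 in each group, and a p-value reflects how far cultures, and subarrays of 1 slide, spread around their group.

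Ectomycorrhizal fungi such as Paxillus involutus live on the roots of trees, receive sugar from the host and supply it with nitrogen and other nutrients taken from soil. They have lost many of the enzymes with which wood-rotting relatives break down plant cell walls. Paxillus involutus is nevertheless known to modify organic matter by an oxidative route that resembles that of brown-rot fungi, and it uses the nitrogen held there. In fungi, glucose and ammonium each repress genes for the use of other carbon and nitrogen sources, so that the supply of both bears on how organic matter is used. The comparison of OM+G with OM asks what the carbon supply alone changes when organic matter is the only nitrogen source added.

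Each array gave 1 log2 value for each of 12214 features, numbered paxillus_1 to paxillus_13654 with gaps, and the arrays of both groups had medians between 11.74 and 11.77. The features are not paired with gene names in the files, and 0 of them could be found among the 18033 entries of the gene table used as reference. No function is therefore given to a feature, pathways and marker genes could not be examined, and at most 2 features in each direction are named per comparison. The arrays measure RNA of the whole mycelium, where a change of level per hypha and a change in the mix of hyphae cannot be told apart. OM occupied subarrays 1 to 3 of the slide and OM+G subarrays 7 to 9, so the place on the slide cannot be told apart from the glucose supply either. One array stood apart from its group. Over 11499 features that averaged 6 or more on the log2 scale, which lie above the level of the random-sequence control (3.66 to 3.80), OM replicate 2 correlated with the other OM arrays with r between 0.959 and 0.974, whereas OM replicates 1 and 3 correlated with r of 0.989. With the OM+G arrays it correlated with r between 0.925 and 0.935, against 0.819 to 0.865 for OM replicates 1 and 3. These correlations are across features, which are not independent replicates. The main counts of called features and the changes of named features are given with and without OM replicate 2. In the OM+N group replicate 1 stood somewhat apart, with r of 0.961 and 0.969 against 0.987 between replicates 2 and 3.

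With glucose, transcripts shifted in both directions across most of the transcriptome, the shifts were mostly small, and the changes past 2-fold were mostly rises. A feature was called changed at a limma adjusted p under 0.05 over all features. By this rule 8088 features (66.2%) changed, of which 3643 (29.8%) rose and 4445 (36.4%) fell. Without OM replicate 2 the fit called 8364 features (68.5%), of which 3717 (30.4%) rose and 4647 (38%) fell. The arrays of OM+G and OM did not overlap for 8755 features (71.7%), and for 9778 (80.1%) once OM replicate 2 was left out. Leaving out any array can only keep or raise this number, and fewer arrays separate more easily by chance. The 2 shares are therefore not comparable. Both fits called 7873 features, all of them in the same direction, and the median size of their change was 0.43 with all arrays and 0.48 without OM replicate 2 on the log2 scale. The 491 features called only without this array and the 215 called only with it had small changes, with median sizes of 0.22 and 0.19.

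Size separated the directions among the called features. At least 1.2-fold, 2939 features rose and 3599 fell. At least 1.5-fold, 1026 rose and 919 fell. At least 2-fold, which is a change of 1 on the log2 scale, 133 features changed (1.09%), of which 131 rose (1.07%) and 2 fell (0.0164%), and at least 3-fold, 9 rose and 0 fell. Without OM replicate 2 the numbers were 1365 and 1303 at 1.5-fold and 19 and 0 at 3-fold. At 2-fold they were 265 (2.17%) and 30 (0.246%), together 295 (2.42%). With OM replicate 3 left out instead, 84 rose and 4 fell at least 2-fold. All 133 features past 2-fold with all arrays were also past it without OM replicate 2, which added 162. The scarcity of large falls depended on the scaling. After cyclic loess between arrays, 156 features rose and 26 fell at least 2-fold, and without OM replicate 2 the numbers were 270 and 87.

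**Figure D1:**
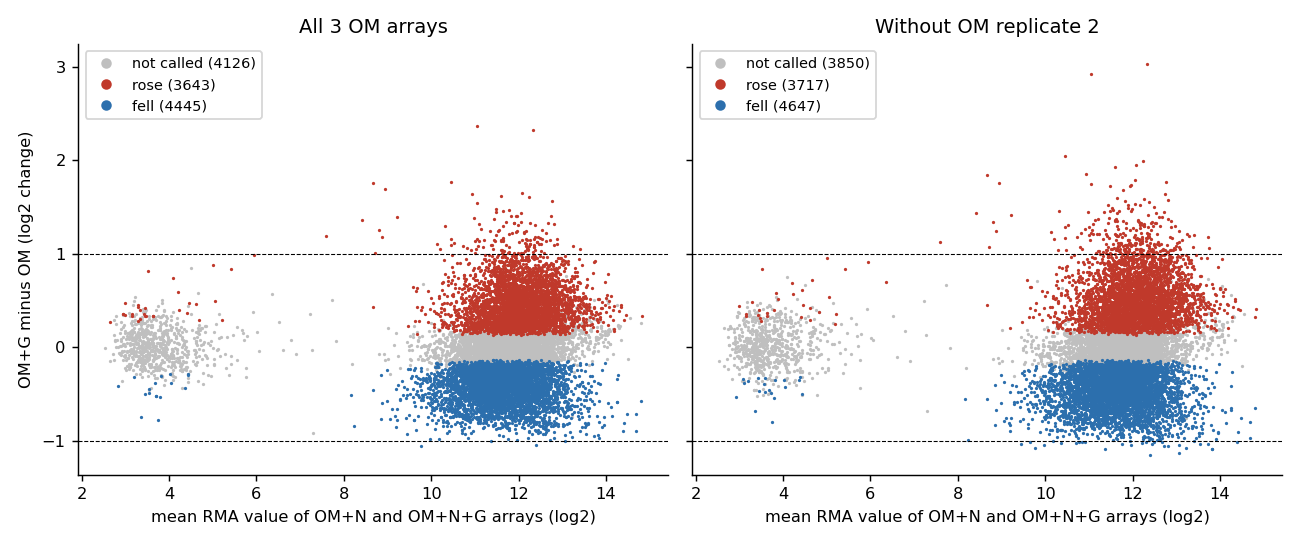
Log2 change from OM to OM+G (vertical axis) of each feature against its mean level on the 6 arrays with ammonium (log2, horizontal axis), with all OM arrays (left) and without OM replicate 2 (right). Red points rose and blue points fell at an adjusted p under 0.05, grey points were not called, and dashed lines mark a change of 1. More features lie above the upper dashed line than below the lower one, 131 against 2 on the left and 265 against 30 on the right.

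The strongest rises were those of paxillus_316 and paxillus_10, and both depended in size on OM replicate 2. paxillus_316 lay at 9.85, 11.40 and 9.62 on OM replicates 1 to 3 and at 12.56, 12.66 and 12.75 on the OM+G arrays (log2). The groups did not overlap, but OM replicate 2 stood more than halfway towards OM+G. The rise was 2.37 (SE 0.33, limma adjusted p = 5.75e-05), and without OM replicate 2 it was 2.92 (SE 0.13, limma adjusted p = 1.5e-07), a 7.59-fold change.

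paxillus_10 lay at 10.76, 12.90 and 10.75 on the OM arrays and at 13.77, 13.86 and 13.73 on the OM+G arrays (log2). Here OM replicate 2 was closer to OM+G than to its own group. The rise was 2.32 (SE 0.41, limma adjusted p = 0.000326) with all arrays and 3.03 (SE 0.11, limma adjusted p = 6.88e-08), or 8.18-fold, without OM replicate 2. The order of both features thus turned when this array was left out. In OM+G each stood close to its level in OM+N+G, which was 12.47 ± 0.17 for paxillus_316 and 13.89 ± 0.07 for paxillus_10 (log2, SD, n = 3).

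The strongest falls were smaller, and their order depended on the scaling. paxillus_6517 lay at 10.30, 10.26 and 10.31 on the OM arrays and at 9.22, 9.23 and 9.25 on the OM+G arrays (log2). All OM arrays, replicate 2 included, lay within 0.05 of each other. The change of paxillus_6517 was -1.06 (SE 0.06, limma adjusted p = 1.86e-06), and -1.07 without OM replicate 2. After cyclic loess and quantile normalization it was -0.775 and -0.848, smaller than the falls of paxillus_4689 (-1.11 and -1.12) and paxillus_12237 (-1.15 and -1.10).

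paxillus_4689 lay at 13.10, 12.72 and 13.00 on the OM arrays and at 11.99, 11.91 and 11.78 on the OM+G arrays, and it fell by 1.04 (SE 0.11, limma adjusted p = 9.4e-06). Without OM replicate 2, the lowest of its group, paxillus_4689 fell by 1.16 (limma adjusted p = 3.19e-06) and had the largest fall. It was followed by paxillus_12237, which lay at 13.62, 13.25 and 13.69 on the OM arrays and at 12.55, 12.51 and 12.50 on the OM+G arrays. Again OM replicate 2 was the lowest of its group without reaching the OM+G arrays. paxillus_12237 fell by 1.14 without OM replicate 2 (SE 0.08, limma adjusted p = 1.75e-06). With all arrays it fell by 0.999 (SE 0.11, limma adjusted p = 1.14e-05), just short of 1.

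**Figure D2:**
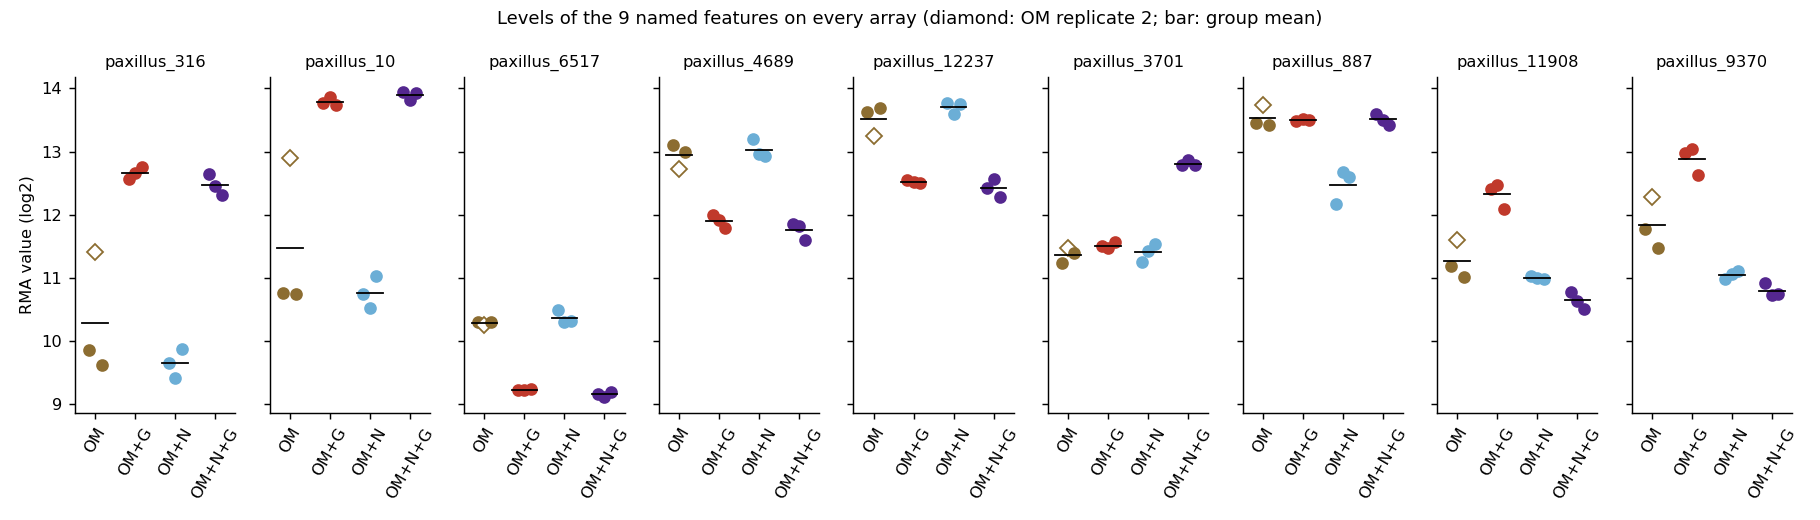
Log2 RMA value (vertical axis) of the 9 named features on each of the 12 arrays, by group. Points are arrays, the open diamond is OM replicate 2, and the bar is the group mean. For paxillus_316 and paxillus_10 the diamond lies between the other OM arrays and the OM+G arrays, for paxillus_6517 it lies with the other OM arrays.

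The features that rose strongly came from a wide range of levels. The 131 rises of at least 1 started from OM means between 6.76 and 13.23, with a median of 11.41, against 11.83 over all features with at least 6 in OM. The 19 features that rose at least 3-fold without OM replicate 2 lay between 7.69 and 11.99 in the other OM arrays and between 9.53 and 13.79 in OM+G. Their median level was 10.89, 11.99 and 10.79 on OM replicates 1 to 3 and 12.99, 12.95 and 12.84 on the OM+G arrays. These values describe features chosen by this same comparison and are no test of it. Few features crossed the level of 6, a cutoff set here above the level of the random-sequence control. In OM 716 features lay under 6 and in OM+G 714. Of those under 6 in OM, 1 feature was called risen to 6 or more, or 2 when OM replicate 2 was left out. Of the 714 features under 6 in both groups 47 were called, and 48 of 713 in the fit without that array, against 66.2% and 68.5% of all features.

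OM replicate 2 lay further along the rises than along the falls on the log2 scale. For each feature its position was expressed on a scale from 0, the mean of OM replicates 1 and 3, to 1, the mean of OM+G. Over the 1800 features that rose by at least 0.5 on this footing, the median position was 0.41 and the quartiles were 0.27 and 0.53. Over the 1933 features that fell by at least 0.5, the median was 0.30 and the quartiles were 0.22 and 0.38. OM replicate 2 was nearer to OM+G than to the other OM arrays for 548 of the rising features (30.4%) and for 149 of the falling ones (7.71%). It lay on the far side of the other OM arrays, away from OM+G, for 57 and 17 features. Among the features named above its position was 0.71 for paxillus_10, 0.57 for paxillus_316, 0.36 for paxillus_12237, 0.29 for paxillus_4689 and 0.04 for paxillus_6517. The gap between rises and falls was smaller after cyclic loess, with median positions of 0.37 and 0.32. Features nearer to OM+G were then 23.1% of the rising and 11.3% of the falling ones. These shares were 34.7% and 11.6% after quantile normalization and 33% and 9.1% after scaling to the 75th percentile. Positions are on the log2 scale, and whether 1 common share of the change on the linear scale gives them was not tested.

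**Figure D3:**
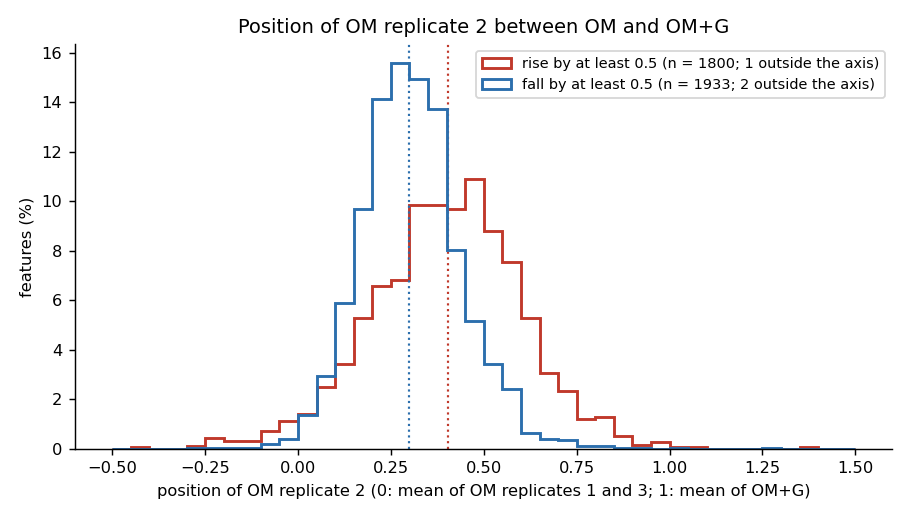
Distribution over features of the position of OM replicate 2 (horizontal axis, no unit), where 0 is the mean of OM replicates 1 and 3 and 1 the mean of OM+G, as a percentage of features (vertical axis). Red is for features that rose and blue for features that fell by at least 0.5 on the log2 scale, and dotted lines are medians. In the deposited values, shown here, the red distribution is wider and its median lies further to the right, at 0.41 against 0.30.

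An axis made without any of the 6 arrays gave a like order. Each array was scored from 0, the mean of OM+N, to 1, the mean of OM+N+G, by projecting its values on the difference of these means over all features. OM replicates 1, 2 and 3 scored 0.12, 0.39 and 0.05, and OM+G replicates 1, 2 and 3 scored 0.90, 0.92 and 0.96. The groups did not overlap, and the difference of means was 0.74 (exact two-sided permutation test, p = 0.1, the smallest that 3 against 3 allows). Without OM replicate 2 the difference was 0.84 (exact permutation test, p = 0.1, again the smallest possible). Over the features that rose by at least 0.5 along this axis OM replicate 2 scored 0.45, and over those that fell by as much it scored 0.31. This order was not particular to OM replicate 2. OM replicate 1 scored 0.16 and 0.075, and OM replicate 3 scored 0.06 and 0.03. OM+G replicates 1 to 3 scored 0.915 and 0.888, 0.934 and 0.918, and 0.96 and 0.948. The scores of rising features exceeded those of falling ones for OM replicate 2 after cyclic loess (0.41 and 0.32), quantile normalization (0.47 and 0.34) and scaling to the 75th percentile (0.47 and 0.31) too.

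With all arrays, the OM arrays were more variable than the OM+G arrays, and this went with OM replicate 2. Over the same 11499 features, the median SD between arrays was 0.10 among the OM arrays and 0.06 among the OM+G arrays. The SD was larger in OM than in OM+G for 8157 features (70.9%). Without OM replicate 2 the median SD in OM was 0.053, and the SD was larger in OM for 5195 features (45.2%). An SD of 2 arrays is then set against an SD of 3, so these values are not fully comparable. Between pairs of arrays the median difference was 0.125 and 0.159 for OM replicate 2 with replicates 1 and 3. It was 0.0753 between OM replicates 1 and 3, within the 0.0558 to 0.0767 of the OM+G pairs. The range of levels within an array was wider with glucose. The interquartile range over features was 1.06, 1.12 and 1.07 on OM replicates 1 to 3 and 1.25, 1.26 and 1.27 on the OM+G arrays (log2). No OM array reached an OM+G array, and OM replicate 2 was the widest of its group. The means differed by 0.18 (exact two-sided permutation test, p = 0.1, the smallest possible), and by 0.20 without OM replicate 2. The width depends on the scaling: cyclic loess and quantile normalization make the distributions of the arrays alike and remove it.

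The direction of the change went with the level of the feature. Levels were taken from the arrays with ammonium, which the comparison does not hold, and the features with at least 6 there were divided into 10 classes of 1150 features. These arrays include the glucose-fed OM+N+G group, where 90.5% of the rises and 94.0% of the falls recurred. A rise thus moves a feature towards a brighter class and a fall towards a dimmer one, so level and change are not independent. In the dimmest class, between 6.02 and 10.82, 188 features rose (16.3%) and 618 fell (53.7%), with a median change of -0.23 over the class. In the brightest class, between 12.78 and 14.82, 528 rose (45.9%) and 282 fell (24.5%), with a median change of 0.19. The share that rose was higher in each class than in the next dimmer one, except in the class from 12.02 to 12.22, where it was 33.8% against 35.0% in the class below. With OM replicate 2 left out the shares were 15.6% and 56.3% in the dimmest class and 49.9% and 25.3% in the brightest. After cyclic loess, which removes trends with level by construction, the dimmest class held 32.7% rises and 31.7% falls. Rises of at least 1 numbered between 6 and 19 per class with all arrays, with 17 in the dimmest and 6 in the brightest. With OM replicate 2 left out they were more frequent in the brighter classes, with 15 to 25 in each of the 4 dimmest and 28 to 38 in each of the others. This order depended on the scaling. After cyclic loess without that array, 36 such rises were in the dimmest class and 7 in the brightest.

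The direction also went with the running number of the feature, a property the comparison did not use and whose origin is not given in the sources used here. Among features numbered 7001 to 8000, 520 of 1000 rose (52.0%) and 168 fell (16.8%). Among those numbered 12001 to 13000, 64 of 807 rose (7.93%) and 589 fell (73.0%), where features under a mean of 6 were left out. The change did not run evenly along the numbers. Rises were more frequent than falls from 1 to 2000, falls from 2001 to 4000, rises from 4001 to 6000, falls from 6001 to 7000, rises from 7001 to 9000 and falls from 9001 to the end of the numbering. This order was the same without OM replicate 2, while cyclic loess turned the blocks 3001 to 4000 and 9001 to 10000 to a small excess of rises. In the fit without OM replicate 2 the shares were 53.0% and 17.4% between 7001 and 8000 and 7.93% and 74.5% between 12001 and 13000.

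Blocks with more rises mostly had the higher levels. Their median levels lay between 11.85 and 12.17, and those of blocks with more falls between 11.48 and 11.86 (log2, arrays with ammonium). Block 7001 to 8000 had a median level of 11.97 and a median change of 0.19, and block 12001 to 13000 had 11.48 and -0.40. After cyclic loess 54.3% rose and 15.1% fell in the first of these blocks, and 11.5% rose and 63.1% fell in the second. The part of level in the pattern was not tested beyond this. The arrays with ammonium, which share no array with the comparison, had 54.0% rises and 22.1% falls between 7001 and 8000 and 10.2% rises and 77.6% falls between 12001 and 13000.

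Features with neighbouring numbers tended to change alike, and so, somewhat less, did features 100 numbers apart. The part of the broad blocks described above in these shares was not tested. Of the 5292 pairs of consecutive numbers in which both features were called, 3658 (69.1%) changed in the same direction. At a distance of 10 numbers the share was 64.4%, at 100 it was 63.0%, and at 1000 it was 56.4%. Of all called features 45% were rises, and the share for pairs drawn without regard to number was not computed. Across the 10563 consecutive pairs the changes correlated with r of 0.30, and the levels of the same pairs with r of 0.14, where pairs share the arrays and are not independent. The correlation of changes was 0.30 without OM replicate 2 too. Whether neighbours carry related sequences could not be examined, because no sequence of the features was used here.

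**Figure D4:**
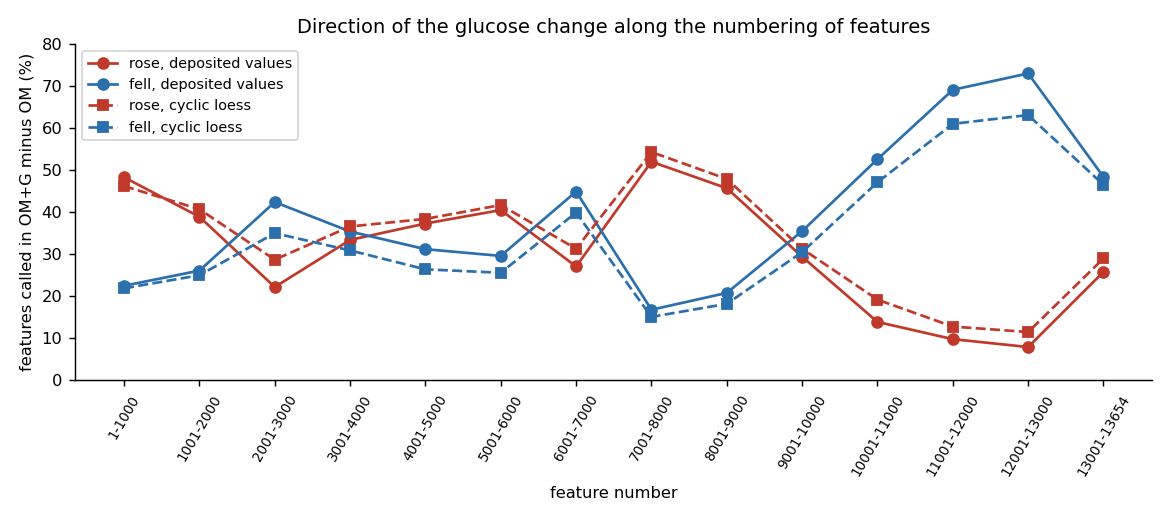
Percentage of features that rose (red) or fell (blue) between OM and OM+G at an adjusted p under 0.05 (vertical axis), by blocks of 1000 feature numbers (horizontal axis), among features with a mean of at least 6. Solid lines are the deposited values, dashed lines the values after cyclic loess. Falls reach 73.0% and rises 7.93% between 12001 and 13000, against 16.8% and 52.0% between 7001 and 8000.

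The glucose change with ammonium, measured between OM+N and OM+N+G, shares no array with the comparison, although both take each feature's spread from 1 fit. In that pair 8963 features were called (73.4%), of which 3990 rose (32.7%) and 4973 fell (40.7%), and 623 changed by at least 1 (5.1%). Of the 3643 features that rose without ammonium, 3298 rose with it, which is 90.5% of the first list and 82.7% of the second. Of the 4445 that fell, 4177 fell with ammonium, which is 94.0% and 84.0%. Of the rises of at least 1, 117 were in both lists, which is 89.3% of the 131 without and 24.4% of the 480 with ammonium (3.93%). In the fit without OM replicate 2 the shared rises numbered 222, or 83.8% and 46.2%, and all 30 falls of at least 1 were among the 143 with ammonium (1.17%). Of the 265 rises, 263 had a positive change with ammonium, and the other two were paxillus_11908 and paxillus_9370. The lists with ammonium rested in part on OM+N replicate 1. With this array and OM replicate 2 left out, 322 features rose (2.64%) and 88 fell (0.72%) by at least 1 with ammonium. The shared rises were then 189, or 71.3% of 265 and 58.7% of 322, and the shared falls 26, or 86.7% of 30 and 29.5% of 88.

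Features chosen for their change with ammonium can be read on the arrays without it. The 480 features that rose by at least 1 between OM+N and OM+N+G had median levels of 11.83, 12.2 and 11.70 on OM replicates 1 to 3 and of 12.75, 12.77 and 12.80 on the OM+G arrays. Of these, 452 were called risen without ammonium and 28 were not called, where 29.8% of all features rose. The fit without OM replicate 2 called 459. The 143 features that fell by at least 1 had medians of 12.36, 12.16 and 12.33 on the OM arrays and of 11.48, 11.47 and 11.41 on the OM+G arrays, and all 143 were called fallen in both fits, where 36.4% of all features fell. On both lists OM replicate 2 was the OM array nearest to OM+G.

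The change without ammonium was mostly the smaller of both. Among the 3643 rises it was the larger for 1063 features, with median sizes of 0.43 without and 0.53 with ammonium, and among the 4445 falls for 874, with medians of 0.41 and 0.51. When OM replicate 2 was left out, it was the larger for 1547 of 3717 rises, with medians of 0.485 and 0.527, and for 1620 of 4647 falls, with medians of 0.452 and 0.496. Over the 480 rising features the median change was 0.85 without ammonium and 1.17 with it, and over the 143 falling ones -0.84 and -1.07. With OM replicate 2 left out the medians without ammonium were 0.981 and -0.92. Because these lists were chosen for a large change with ammonium, the choice itself favours this direction. When OM replicate 2 and OM+N replicate 1 were both left out, 295 features (2.42%) changed by at least 1 without ammonium and 410 (3.36%) with it, against 133 and 623 with all arrays.

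Where the glucose change depended on ammonium was tested with the interaction, the change with ammonium minus the change without it. It was called for 90 features (0.737%), and for 103 (0.843%) without OM replicate 2, with 77 in both lists. An unadjusted p under 0.05 was found for 1535 (12.6%), and for 1238 (10.1%) without OM replicate 2. A share of 0.05 would pass this limit if no feature differed. Single arrays moved the count: it was 25 and 28 when OM+G replicate 2 or 1 was left out, 37 without OM replicate 1, 38 without OM+N replicate 3, and 48 and 53 without OM+N+G replicates 3 and 1. Among the 44 features (0.36%) whose change was more negative with ammonium, 31 rose when glucose was given alone, 21 of them fell when it was given with ammonium, and 36 of the 44 had their highest mean in OM+G. Over all features 29.8% rose without ammonium and 22.5% had their highest mean in OM+G, but a negative interaction favours both by its construction, so the counts describe the class and test nothing. The fit without OM replicate 2 had 53 such features (0.434%), of which 42 rose without ammonium and 46 had their highest mean in OM+G. Without OM+N replicate 1 as well, 129 features passed (1.06%) and 80 of them were in this class (0.655%), of which 70 rose without ammonium and 68 were highest in OM+G.

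paxillus_11908 was the strongest of these. It lay at 11.19, 11.59 and 11.02 on the OM arrays and at 12.41, 12.47 and 12.09 on the OM+G arrays. All OM+G arrays were above all OM arrays, and OM replicate 2 was the highest of its group. paxillus_11908 rose by 1.06 (SE 0.13, limma adjusted p = 2.84e-05) without ammonium and fell by 0.36 with it (limma adjusted p = 0.0258). In the fit without OM replicate 2 its rise without ammonium was 1.22. The interaction was -1.42 (SE 0.19, limma adjusted p = 0.00648), and -1.58 without OM replicate 2 (limma adjusted p = 0.000791).

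paxillus_9370 lay at 11.77, 12.29 and 11.47 on the OM arrays and at 12.98, 13.03 and 12.63 on the OM+G arrays, without overlap. Its rise was 1.04 (SE 0.16, limma adjusted p = 0.000128), and 1.26 in the fit without OM replicate 2. With ammonium its change was -0.25 (limma adjusted p = 0.177). The interaction of paxillus_9370 was -1.30 (SE 0.23, limma adjusted p = 0.0238) and -1.52 without OM replicate 2 (limma adjusted p = 0.00216). It no longer passed when OM replicate 1, OM+G replicate 1 or 2, OM+N replicate 3 or OM+N+G replicate 2 or 3 was left out (limma adjusted p between 0.0548 and 0.0802).

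Among the 46 features (0.377%) whose change was more positive with ammonium, which numbered 50 (0.409%) without OM replicate 2, 17 were not called without it, 18 rose and 11 fell, and all 46 rose with it. In the fit without OM replicate 2, 17 of the 50 were not called, 17 rose and 16 fell, and 46 rose with ammonium. Over all features 29.8% rose and 36.4% fell without ammonium and 32.7% rose with it, and the choice of these features favours a rise with it. paxillus_3701 lay at 11.24, 11.47 and 11.40 on the OM arrays and at 11.50, 11.47 and 11.56 on the OM+G arrays, where the groups overlapped. Its change without ammonium was 0.14 (SE 0.08, limma adjusted p = 0.138), and 0.19 without OM replicate 2 (limma adjusted p = 0.0633), against an interaction of 1.26 (SE 0.11, limma adjusted p = 0.000638), or 1.21 without that array (limma adjusted p = 0.000791).

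paxillus_887 lay at 13.45, 13.74 and 13.42 on the OM arrays and at 13.48, 13.51 and 13.50 on the OM+G arrays. OM replicate 2 was above all OM+G arrays and the other OM arrays were below them. The change without ammonium was -0.04 (SE 0.12, limma adjusted p = 0.773), and it was 0.06 without OM replicate 2 (limma adjusted p = 0.673), so its sign rests on that array. The interaction of paxillus_887 was 1.07 (SE 0.17, limma adjusted p = 0.0123) and 0.97 without OM replicate 2 (limma adjusted p = 0.0178). With ammonium paxillus_887 rose by 1.03 (limma adjusted p = 6.46e-06), from a mean of 12.48 on the OM+N arrays to 13.51 on the OM+N+G arrays. The OM mean was 13.54 and the OM+G mean 13.50. OM+N was thus the only low group, and the rise with ammonium only reached the level found without it.

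**Figure D5:**
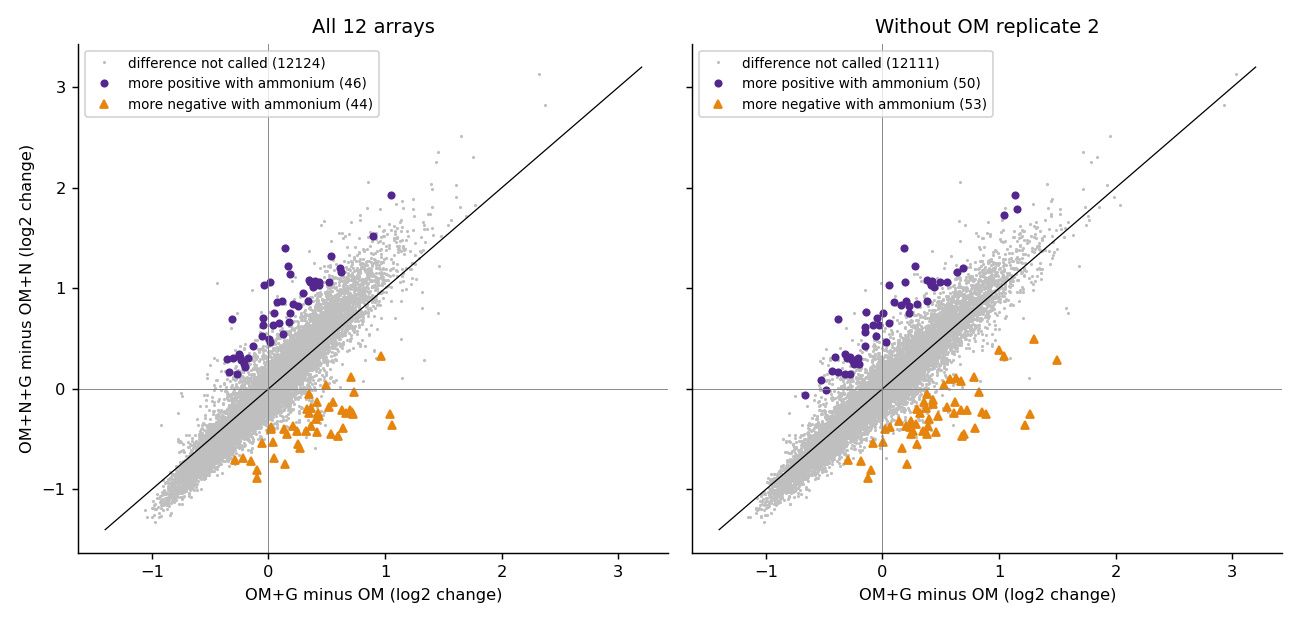
Log2 change with glucose in the absence of ammonium (horizontal axis) against that in its presence (vertical axis) for each feature, with all arrays (left) and without OM replicate 2 (right). The line marks equal changes. Coloured points passed the interaction test, purple circles (46 and 50) with a more positive and orange triangles (44 and 53) with a more negative change in the presence of ammonium. Most orange triangles lie to the right of 0 on the horizontal axis, where levels rose without ammonium.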

How the data were processed

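Total RNA was converted to Cy3-labelled double-stranded cDNA and hybridised to the 12 subarrays of 1 NimbleGen slide, per the labels. The authors deposited RMA values, read as log2 from their range, made with settings not given in the sources used here, per the submitters' processing notes. RMA usually equalises the probe distributions of arrays, so a change is measured against the bulk of the array. The deposited probe numbers were 10 for 12203 features and lower for 11; the random-sequence control was left out. The deposited scores named as errors were not used. The deposited series table differed from the array files in 0 values.

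limma version 3.58.1 (R version 4.3.3) fitted group means over the 12 arrays (lmFit, contrasts.fit, eBayes), with 8 residual and 4.72 prior degrees of freedom, Benjamini-Hochberg adjustment over 12214 features and no filter. The fit was tried on simulated data with independent normal noise, few changed features and no outlying array. In these data most features were called and OM replicate 2 stood apart, so that trial checks the procedure and not the calls. Named are the 2 largest changes in each direction of a comparison among called features, without overlap between arrays for glucose comparisons; limma adjusted p-values are given. SE is limma's moderated standard error. The members, rules and lists were chosen with earlier results of these data known. Same-numbered OM and OM+G arrays deviated from their group means with r of 0.08, -0.02 and -0.21, so the numbers were not taken to pair them.

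Alternatives were the series table, cyclic loess, quantile normalization, 75th percentile scaling, removal of the 25% dimmest features, trend and robust moderation, array weights, the 6 arrays alone, a replicate block, treat with a minimum change, and leaving out each array. Those combined with the removal of OM replicate 2, the removal of OM replicate 2 with OM+N replicate 1, the differences between pairs of arrays, and the scalings applied to shares by level, number and position were chosen after seeing the data. The number of arrays limits the precision.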

Additional observations from a re-analysis of the deposited data

Results flagged for a closer look

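The glucose change differed between cultures without and with ammonium, by the test of the difference itself, for 90 features (0.737%). Without OM replicate 2 the number was 103 (0.843%), and it moved with single arrays, as given below. Among the named ones the difference was 1.26 for paxillus_3701, 1.07 for paxillus_887, -1.42 for paxillus_11908 and -1.30 for paxillus_9370 (log2, limma). The difference of paxillus_9370 did not pass in 7 of the alternatives.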

How the results depend on the processing

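The count of called features kept within 1.5 times of 8088 under every alternative but treat, which tests for a minimum change. Treat called 3277 features (1432 rises and 1845 falls) for at least 1.2-fold and 0 for a log2 minimum of 1, where 0 rose and 0 fell; 8425 had an unadjusted p under 0.05 in the usual test. Without OM replicate 2 treat called 4278 (1911 rises and 2367 falls) and 11 (11 rises, 0 falls). Leaving out each OM or OM+G array gave 7189 to 8364 calls, 3201 to 3717 rises and 3988 to 4647 falls. Changes of at least 1 ranged from 88 without OM replicate 3 to 295 without OM replicate 2, rises from 84 to 265 and falls from 1 to 30. Array weights gave 219 such changes (202 rises, 17 falls), and leaving out OM replicate 2 and OM+N replicate 1 gave 295 (265 and 30). Large falls numbered 26 after cyclic loess, 20 after quantile normalization, 17 after scaling to the 75th percentile and 1 without the dimmest 25%, and without OM replicate 2 they numbered 87, 76 and 71 after these scalings in the same order. The cause was not tested.

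The interaction count was 59 after quantile normalization (24 more negative with ammonium), 144 with trend and robust moderation (87 more positive) and 329 with array weights (188 and 141). It ranged from 25 to 103 over the arrays left out, with 12 to 53 more positive and 13 to 53 more negative, and the lowest counts were 25 without OM+G replicate 2 and 28 without OM+G replicate 1. Without OM replicate 2 and OM+N replicate 1, 129 passed and 80 were more negative. The replicate block gave 8006 calls for glucose and 64 for the interaction, 29 of them more positive, where the numbers do not pair the arrays. paxillus_9370 had an interaction adjusted p of 0.095 after quantile normalization and between 0.0548 and 0.0802 in 6 of the 12 fits that left out an array (limma). Difference of interquartile range: 0.13 without the dimmest 25%, 0.00256 after cyclic loess and -3.19e-05 after quantile normalization, both by construction; it was 0.167 to 0.196 over arrays left out. The difference of scores was 0.671 to 0.841 over arrays left out. The largest change that was not called was 0.92, the smallest called one 0.13.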
